A study of Mus musculus with 12 samples.

Results

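The genes Cpxm2, Cmtm5, Scrg1, Tmprss5 and Fam107a were followed across single cells of the mouse gut wall. They are 5 of the 50508 gene models in the deposited table, and they were chosen by their UMI counts, which earlier results of the same data placed in the CD49b+ (glial) gate and almost nowhere else. The difference between the gates is therefore given as a description, with no test. What happened to the genes after irradiation, how they were spread over the wells within a gate and how they went with each other there were not part of the choice. The cells came from the longitudinal muscle and myenteric plexus of the intestine of adult C57BL/6 mice and were sorted, for a Dclk1-tdTom label, into wells for RNA sequencing with unique molecular identifiers (UMIs, a tag that lets each captured transcript molecule be counted once). The comparison was between injured and uninjured gut.

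Irradiated CD49b+ cells, homeostasis CD49b+ cells, irradiated CD49b- cells and homeostasis CD49b- cells were each sorted onto 3 plates of 96 wells. All 4 groups carried the tdTom label and had received 3 mg tamoxifen at 8 or 9 weeks of age. Irradiated mice received 10.5 Gy 7 d after tamoxifen and were collected 3 d later, so that every mouse was collected 10 d after tamoxifen. Each treatment had 6 mice, pooled by 2, and the CD49b+ and CD49b- plates of 1 replicate came from the same pool. The replicate is the plate. The alleles behind the tdTom label, and the cells in which they act, are not spelled out in the sources used here, and a label tied to Dclk1 holds only cells that had used that gene.

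Enteric glia arise from the neural crest and surround the neurons of the gut's own nervous system, where they are told from neurons by Sox10, S100b and Gfap. The 5 genes are not among these standard markers, and they have little in common as molecules. Cpxm2 encodes a secreted protein of the carboxypeptidase family that lacks residues needed for catalysis. Cmtm5 encodes a membrane protein with a MARVEL domain that is found in oligodendrocytes and central myelin of the mouse. Scrg1 encodes a small secreted protein first known for its rise in the brains of mice infected with scrapie. Tmprss5, also called spinesin, encodes a serine protease anchored in the membrane. Fam107a, also called DRR1, encodes an actin-binding protein that stress and glucocorticoids induce in the mouse brain.

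The genes lie apart in the genome (GENCODE vM21, GRCm38). Cpxm2 is on the minus strand at chr7:132032687-132154739, Cmtm5 on the plus strand at chr14:54936261-54939274, Scrg1 on the plus strand at chr8:57455923-57477585, Tmprss5 on the plus strand at chr9:49081260-49117587 and Fam107a on the minus strand at chr14:8296274-8318023. The UMIs stand for whole gene models, so no exon or UTR can be assigned to them. Cpxm2 was the only member whose span overlapped other genes. Their UMIs were summed over all wells of a gate, with no well left out. These genes are Fgfr2, with 0 UMIs in CD49b+ wells and 65 in CD49b- wells, and the antisense gene Gm15677 with 7 and 0. The ribosomal RNA gene n-R5s159 had 0 and 0. Whether counting used the strand is not given in the sources used here, so reads of Cpxm2 and Gm15677 cannot be told apart.

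Because all 5 genes went with the same gate, their promoter windows from RefSeq (GRCm38.p6, 250 bases before to 50 after a start) were set side by side. The table held 8 windows for 4 of the 5 genes, of which 1 per gene is shown, and Scrg1 is named only. Searches on both strands were made for the SOX-family core words ACAAAG and ACAATG, for AGAACA, which is one side of the glucocorticoid receptor's element, and for the TATA box word TATAAA. None of these words overlap each other in the windows shown, and matches are in capitals. The Cpxm2 window at chr7:132154692-132154991 (minus strand) and the Cmtm5 window at chr14:54936247-54936546 (plus strand) are shown because they held none of the 4 words. The Tmprss5 window at chr9:49102478-49102777 (plus strand) held CATTGT, the reverse complement of ACAATG, beginning 93 bases before the start. The Fam107a window at chr14:8309730-8310029 (minus strand) held ACAAAG beginning 197 bases before the start and AGAACA on each strand, beginning 158 and 110 bases before it. The window of another Fam107a start, at chr14:8317558-8317857, held none of the 4 words.
Cpxm2: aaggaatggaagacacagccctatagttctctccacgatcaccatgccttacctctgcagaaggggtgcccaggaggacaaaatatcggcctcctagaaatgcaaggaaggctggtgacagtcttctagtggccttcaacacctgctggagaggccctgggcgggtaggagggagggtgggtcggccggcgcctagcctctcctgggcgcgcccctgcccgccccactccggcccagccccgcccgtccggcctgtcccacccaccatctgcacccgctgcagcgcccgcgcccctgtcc
Cmtm5: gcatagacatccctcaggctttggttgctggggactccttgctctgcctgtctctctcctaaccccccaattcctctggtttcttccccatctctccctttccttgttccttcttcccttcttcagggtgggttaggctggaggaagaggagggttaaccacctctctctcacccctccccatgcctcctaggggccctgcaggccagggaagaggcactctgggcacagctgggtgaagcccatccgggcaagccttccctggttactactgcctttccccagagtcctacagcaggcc
Tmprss5: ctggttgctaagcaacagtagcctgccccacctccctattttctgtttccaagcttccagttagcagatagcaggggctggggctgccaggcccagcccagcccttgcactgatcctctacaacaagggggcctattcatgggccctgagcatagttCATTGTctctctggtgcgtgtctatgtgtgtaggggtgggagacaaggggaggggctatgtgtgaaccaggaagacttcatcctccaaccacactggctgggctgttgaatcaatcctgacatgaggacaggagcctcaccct
Fam107a: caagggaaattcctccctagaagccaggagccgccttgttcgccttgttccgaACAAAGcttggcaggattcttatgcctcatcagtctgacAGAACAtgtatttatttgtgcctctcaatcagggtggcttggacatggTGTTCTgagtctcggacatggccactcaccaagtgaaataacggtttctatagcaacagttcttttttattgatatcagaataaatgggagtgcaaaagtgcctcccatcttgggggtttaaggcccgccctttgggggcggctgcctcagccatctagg
No word was shared by the 4 genes' windows. Of 32851 windows of 300 bases in the table, 18.7% held ACAAAG, 12.6% ACAATG, 19.0% AGAACA and 13.6% TATAAA on either strand, so each match is of a kind found in many promoters. A match is a word in the sequence and not a measured binding site.

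Of 1150 wells, 964 had at least 1000 UMIs, at least 500 genes and under 20% mitochondrial UMIs. They were 213 irradiated CD49b+, 223 homeostasis CD49b+, 266 irradiated CD49b- and 262 homeostasis CD49b- wells, with 150561 to 243340 UMIs per CD49b+ plate and 541729 to 746674 per CD49b- plate. Plate medians were 2110 to 2680 UMIs per CD49b+ well and 5904.5 to 8335 per CD49b- well. Well barcodes mark positions, and 95 of 96 occurred on all 12 plates. The glia and neuron markers went with the labelled cell types. In all, 12 glia markers summed to 3456 to 4643 CPM (UMIs scaled to 1000000 per plate) on CD49b+ plates and 64.6 to 142 CPM on CD49b- plates, and 12 neuron markers to 321 to 1988 CPM and 8159 to 9581 CPM. Itga2, the gene of CD49b, had 24 UMIs in CD49b+ wells and 0 in CD49b- wells, where 3 counts would be 0.750 CPM. Irradiated replicates 1 and 2 of the CD49b+ gate stood apart by neuron markers at 1988 and 1401 CPM, against 418 CPM in irradiated replicate 3 and 321 to 482 CPM in homeostasis. Irradiated replicate 1 also held 6917 CPM of MHC class II genes, against 1299 to 3261 CPM on the other CD49b+ plates. In 6 CD49b+ wells, 5 of them irradiated, neuron marker UMIs outnumbered glia marker UMIs, and member results are given with and without these wells. Macrophage markers gave 1 UMI on each CD49b+ plate, with Csf1r, Adgre1, C1qa and Ptprc at 0, and the T and B cell markers were at 0. Fibroblast markers summed to 78.1 to 201 CPM on CD49b+ and 0 to 396 CPM on CD49b- plates. Smooth muscle markers summed to 13.3 to 103 and 3.05 to 129 CPM, and endothelial markers to 16.2 to 61.6 and 4.02 to 16.6 CPM. Col3a1 had 129 UMIs in CD49b+ and 67 in CD49b- wells, and Acta2 49 and 36.

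All 5 genes were read on every CD49b+ plate and were at or near 0 on every CD49b- plate. Over all retained wells Cpxm2 had 438 UMIs in CD49b+ wells and 3 in CD49b- wells. Cmtm5 had 741 and 13, Scrg1 458 and 4, Tmprss5 626 and 1, and Fam107a 307 and 1. In CPM of all retained UMIs these were 391 and 0.750 for Cpxm2, 661 and 3.25 for Cmtm5, 408 and 1.0 for Scrg1, 558 and 0.250 for Tmprss5, and 274 and 0.250 for Fam107a. The levels are per molecule and not per length, and genes are not ranked by them.

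The CD49b+ level of Cpxm2 was 520 times its CD49b- level, with an exact 95% binomial interval of 177 to 2534 that covers counting error only. The ratio was 203 (118 to 383) for Cmtm5 and 408 (158 to 1504) for Scrg1. For Tmprss5 it was 2232 (399 to 88284) and for Fam107a 1094 (195 to 43367), both set by 1 CD49b- UMI. The intervals of the 5 ratios overlap in part, and with so few CD49b- counts they do not give an order from Cpxm2 to Fam107a. No CD49b- plate exceeded 8.63 CPM of any of the 5 genes, and 3 counts on a CD49b- plate correspond to 4.02 to 5.54 CPM.

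**Figure D1:**
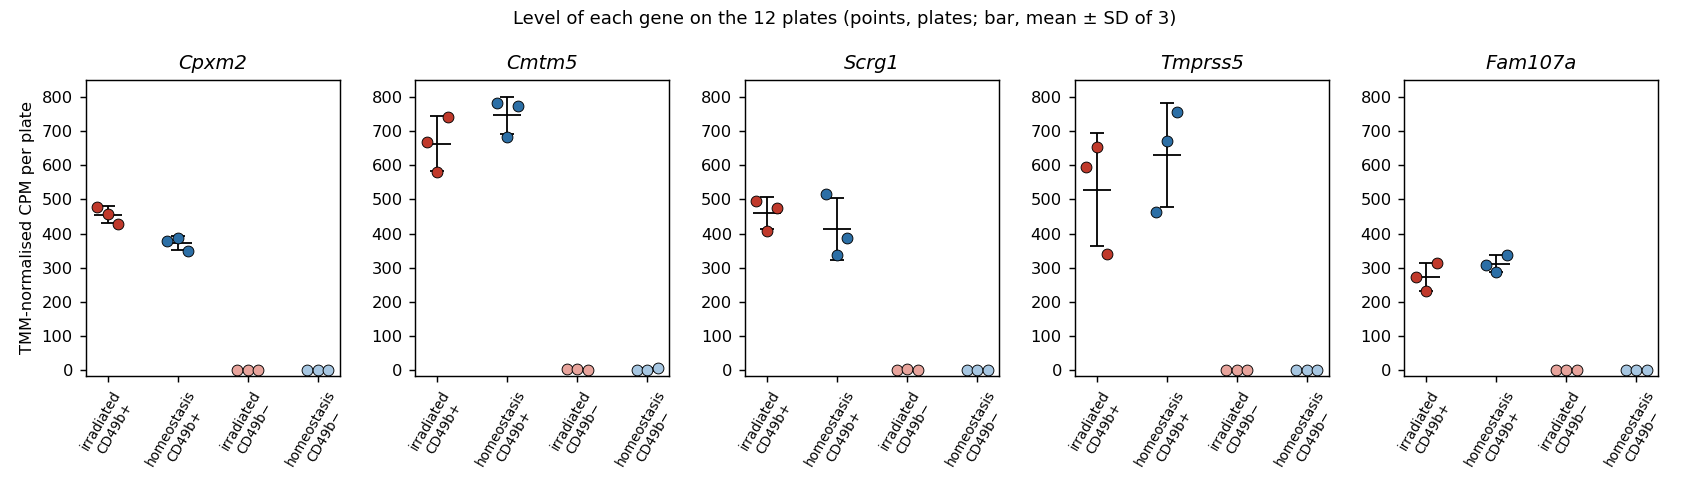
Level of each gene on the 12 plates, in TMM-normalised CPM (vertical axis, starting just under 0); points are plates, and bars show the mean ± SD of 3 plates. CD49b+ plates lie between 232 and 782 CPM and CD49b- plates at 8.63 CPM or less. Cpxm2 is the gene whose irradiated and homeostasis CD49b+ plates do not overlap.

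In single wells each gene was seen in many but not all CD49b+ cells. At full depth Cpxm2 had at least 1 UMI in 59.2% of 436 CD49b+ wells and in 0.568% of 528 CD49b- wells, although the CD49b- wells were deeper. The shares were 76.6% and 2.46% for Cmtm5, 60.8% and 0.758% for Scrg1, 69.0% and 0.189% for Tmprss5, and 48.6% and 0.189% for Fam107a. A CD49b- well never held more than 1 UMI of a gene, whereas the richest CD49b+ well held 6 UMIs of Cpxm2, 9 of Cmtm5, 7 of Scrg1, 10 of Tmprss5 and 5 of Fam107a. Wells without a Cpxm2 UMI were a little shallower, with a median of 2303 UMIs against 2540 UMIs in wells that had one. Missing UMIs at this depth do not show that a cell lacks the gene.

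After each well was thinned to 1000 UMIs, the variance of the counts over CD49b+ wells divided by their mean was 1.09 for Cpxm2, 1.21 for Cmtm5, 1.03 for Scrg1, 1.05 for Tmprss5 and 1.05 for Fam107a. Random sampling of equal cells gives values near 1 (a property of Poisson counts), and Cmtm5 had the highest of the 5 values.

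Nearly every CD49b+ well held at least 1 of the 5 genes, and few CD49b- wells did. The genes were chosen for this gate, so the contrast between the gates is a description only. At least 1 of the 5 was present in 430 of 436 CD49b+ wells (98.6%) and in 21 of 528 CD49b- wells (3.98%). By treatment these were 211 of 213 irradiated and 219 of 223 homeostasis CD49b+ wells. At least 3 genes were present in 72.9% of CD49b+ wells, with a median of 3, and all 5 in 44 wells (10.1%). With every well thinned to 1000 UMIs, 89.7% of CD49b+ wells still held at least 1 of them. Among the 6 wells richer in neuron markers, 5 held from 2 to 5 of the genes and 1 held none. The 21 CD49b- wells with a UMI of a member had a median of 0 glia marker UMIs, the same as the 507 CD49b- wells without, against 10 in CD49b+ wells. Only 1 CD49b- well held 2 of the genes, Cpxm2 and Cmtm5. It was a homeostasis well with 9080 UMIs, 6 of them of glia markers.

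**Figure D2:**
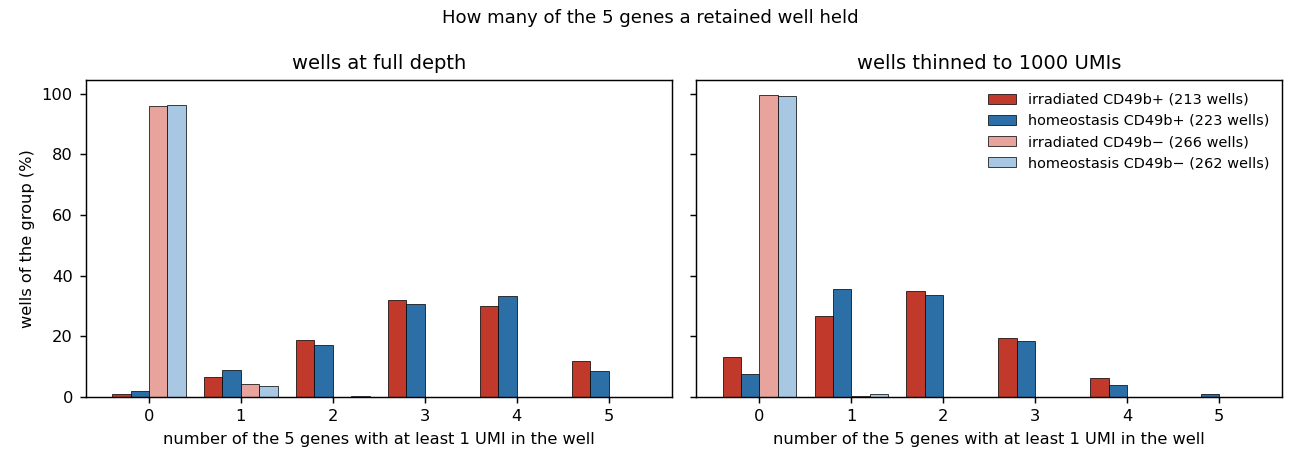
Share of the wells of each group (vertical axis, percent) by how many of the 5 genes had at least 1 UMI in the well (horizontal axis), at full depth on the left and after thinning every well to 1000 UMIs on the right. CD49b+ wells peak at 3 or 4 genes at full depth and CD49b- wells at 0.

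The genes were met together in CD49b+ wells about as often as their separate shares give. Among the 436 thinned CD49b+ wells, Pearson's r between the counts of 2 of the genes ran from -0.092 for Tmprss5 and Fam107a to 0.072 for Cpxm2 and Fam107a over the 10 pairs. Tmprss5 and Fam107a were found together in 33 wells, where the product of their shares gives 41.2 wells. Cmtm5 and Tmprss5 were together in 85 wells against 86.2, Cmtm5 and Scrg1 in 77 against 72.4, Scrg1 and Tmprss5 in 71 against 67.3, and Cpxm2 and Cmtm5 in 64 against 63.2. The widest gap was that of Tmprss5 and Fam107a. Wells share a plate, a pool of mice and a fixed number of UMIs, and in sparse counts a weak correlation says little, so no p is given.

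**Figure D3:**
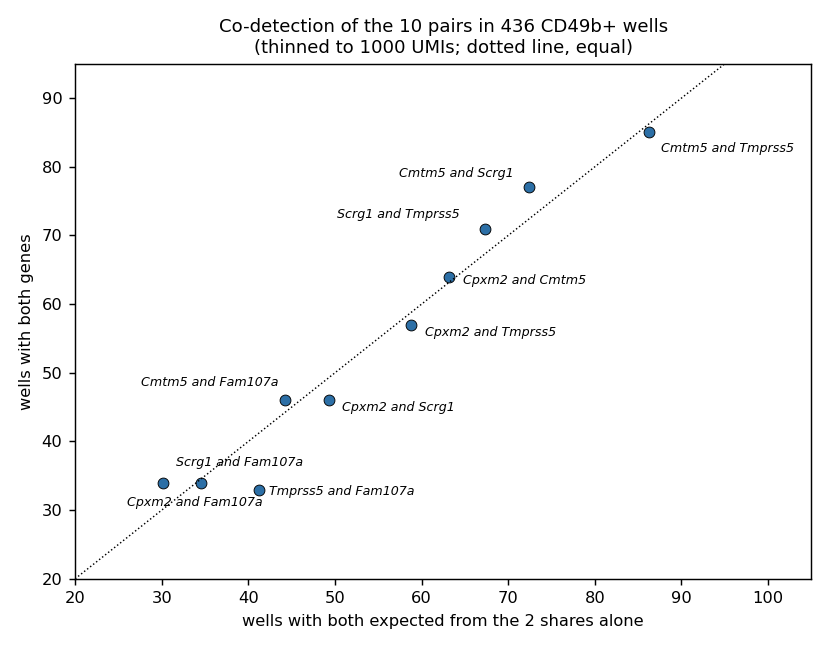
CD49b+ wells that held both genes of a pair (vertical axis) against the number that the shares of the 2 genes give when multiplied (horizontal axis), for the 10 pairs in 436 wells thinned to 1000 UMIs. The points follow the dotted line of equality, and Tmprss5 with Fam107a lies lowest beneath it at 33 wells against 41.2.

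The CD49b+ levels of Cpxm2 and Scrg1 were somewhat higher and those of Cmtm5, Tmprss5 and Fam107a somewhat lower on irradiated plates, and no difference passed the test. The levels below are TMM-normalised CPM of UMIs summed per plate, and the test is edgeR's quasi-likelihood F test with Benjamini-Hochberg adjustment over 8555 genes at 0.05. None of the 5 genes passed (0 of 5), where 0.713% of all tested genes did. That background was 61 genes, 57 higher (0.666%) and 4 lower (0.0468%), and it was 17 genes by limma voom with the mouse pool as a block, 112 by DESeq2 and 910 at an unadjusted p under 0.05. The median log2 fold change of the 5 genes was -0.17, and that of all tested genes was 0.09.

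Cpxm2 had 479, 459 and 429 CPM on the irradiated CD49b+ plates, against 379, 388 and 349 CPM on the homeostasis CD49b+ plates. Every irradiated plate lay above every homeostasis plate. The means were 455 ± 25.2 and 372 ± 20.9 CPM (SD, n = 3 each), a log2 fold change of 0.29 (SE 0.23, edgeR adjusted p = 0.714). Its 95% interval reached from 0.884-fold to 1.70-fold. Cpxm2 was the only one of the 5 whose plates did not overlap (1 of 5), and 10.9% of all tested genes had plates that did not overlap.

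Scrg1 had 497, 407 and 476 CPM on irradiated CD49b+ plates, against 516, 338 and 386 CPM on homeostasis CD49b+ plates. The groups overlapped, and the highest and the lowest Scrg1 plate were both homeostasis plates. The mean of Scrg1 was 459.9 ± 47.4 CPM in irradiated and 413 ± 91.7 CPM in homeostasis plates, a log2 fold change of 0.15 (SE 0.25, edgeR adjusted p = 0.893, 95% interval 0.777-fold to 1.59-fold). Scrg1 and Cpxm2 were the members with a positive estimate.

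Cmtm5 had 667, 581 and 742 CPM on irradiated CD49b+ plates, against 782, 682 and 772 CPM on homeostasis CD49b+ plates. Irradiated replicate 2 was the lowest plate, and irradiated replicate 3 lay among the homeostasis plates. Cmtm5 averaged 663 ± 80.1 CPM in irradiated and 746 ± 55.0 CPM in homeostasis plates, a log2 fold change of -0.17 (SE 0.25, edgeR adjusted p = 0.868, 95% interval 0.624-fold to 1.26-fold).

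Fam107a had 273, 232 and 313 CPM on irradiated CD49b+ plates, against 308, 289 and 338 CPM on homeostasis CD49b+ plates. Its plates overlapped, and as for Cmtm5 irradiated replicate 2 was the lowest of the 6. Fam107a averaged 272 ± 40.7 CPM in irradiated and 312 ± 24.9 CPM in homeostasis plates, a log2 fold change of -0.20 (SE 0.26, edgeR adjusted p = 0.848, 95% interval 0.599-fold to 1.26-fold).

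Tmprss5 was the member that varied most between plates. It had 594, 652 and 340.2 CPM on irradiated CD49b+ plates, against 462, 671 and 756 CPM on homeostasis CD49b+ plates. Irradiated replicate 3 was the lowest of the 6 plates, and the coefficient of variation was 31.4% in irradiated and 24.0% in homeostasis plates, against 5.53% and 5.60% for Cpxm2. Tmprss5 averaged 529 ± 166 CPM in irradiated and 630.0 ± 151 CPM in homeostasis plates, a log2 fold change of -0.24 (SE 0.26, edgeR adjusted p = 0.804, 95% interval 0.580-fold to 1.23-fold). Without irradiated replicate 3 the log2 fold change of Tmprss5 was 0.0022.

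Summed over the 5 genes, the level was 2509, 2330.4 and 2299.6 CPM on irradiated CD49b+ plates, against 2448, 2369 and 2601 CPM on homeostasis CD49b+ plates, with the groups overlapping. A sum per plate cannot tell fewer cells with a gene from fewer molecules per cell. Leaving out the 6 wells richer in neuron markers gave log2 fold changes of 0.40 for Cpxm2, -0.08 for Cmtm5, 0.25 for Scrg1, -0.13 for Tmprss5 and -0.14 for Fam107a, none past the threshold. Without irradiated replicate 1, the plate highest in MHC class II genes, they were 0.23, -0.20, 0.07, -0.34 and -0.23 in the same order. Replicate 1 of each treatment carries neighbouring plate numbers in the labels, the other plates of each treatment form sets of their own, and those sets cannot be told apart from treatment. Irradiated replicates 2 and 3 and homeostasis replicate 2 came from mice given tamoxifen at 9 weeks, the others at 8 weeks. Within that pair of replicate 1 plates the log2 ratio was 0.34 for Cpxm2, -0.23 for Cmtm5, -0.05 for Scrg1, 0.36 for Tmprss5 and -0.18 for Fam107a, so the signs of Scrg1 and Tmprss5 turned.

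**Figure D4:**
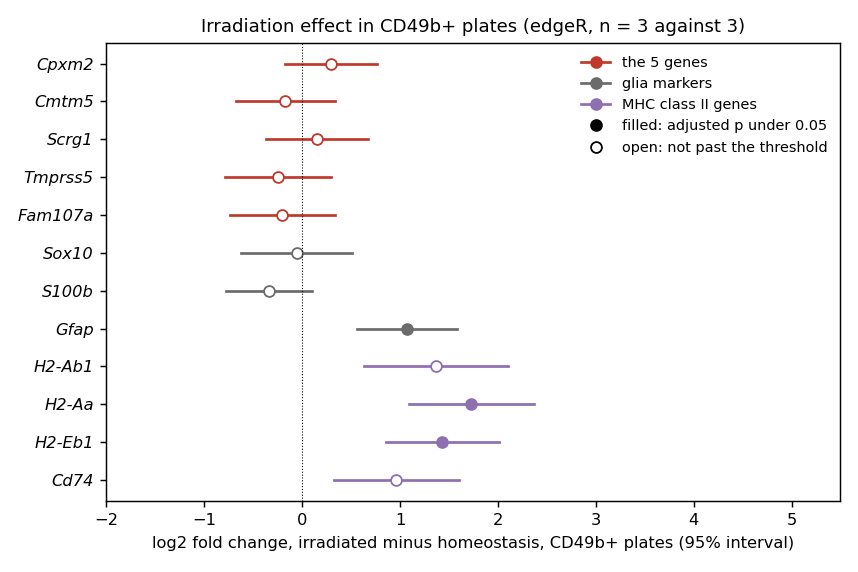
Log2 fold change, irradiated minus homeostasis, on CD49b+ plates (horizontal axis) with its 95% interval for the 5 genes, 3 glia markers (Sox10, S100b and Gfap) and 4 MHC class II genes (edgeR, 3 plates against 3). The intervals of the 5 genes all span 0; filled points, for Gfap, H2-Aa and H2-Eb1, passed the adjusted threshold.

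The plates did hold genes that differed with irradiation. Gfap, an intermediate filament gene raised in reactive glia, averaged 962 ± 317 CPM in irradiated and 456 ± 5.01 CPM in homeostasis CD49b+ plates (n = 3 each), a log2 fold change of 1.07 (SE 0.24, edgeR adjusted p = 0.0380). It was the only one of 12 glia markers called, and its call was lost under 12 of 16 alternatives, with adjusted p from 0.0113 to 0.579. H2-Aa and H2-Eb1, of the MHC class II genes, were higher by 1.73 and 1.43 on the log2 scale (edgeR adjusted p = 0.00733 and 0.0114). The call of H2-Aa was lost under 3 of 16 alternatives and that of H2-Eb1 under 6, with adjusted p up to 0.0695 and 0.110, and H2-Eb1 was at 0.88 without irradiated replicate 1. Neuron markers were also called, with 5 of 11 tested (Snap25, Tubb3, Prph, Stmn2 and Syt1) higher on irradiated CD49b+ plates. The rise was on irradiated replicates 1 and 2. On irradiated replicate 3 Snap25, Stmn2 and Syt1 had 0 CPM and Tubb3 and Prph 6.80 CPM. That plate held 0 of the 6 wells richer in neuron markers. The part of these neuron markers in the members' values was not tested beyond leaving out the 6 wells. With 1 to 13 UMIs of a member over all CD49b- wells, its irradiation effect could not be compared between the gates.

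The difference in the share of wells had the same sign as the difference in level for each of the 5 genes. With every CD49b+ well thinned to 1000 UMIs, Cpxm2 was found in 34.8, 34.5 and 40.0% of wells on irradiated plates, against 25.9, 30.0 and 25.0% on homeostasis plates. These shares did not overlap, and their means differed by 9.46 percentage points (36.4 ± 3.09% and 27.0 ± 2.66%, n = 3 each). The two-sided exact permutation test gave p = 0.1, the smallest that 3 plates against 3 allow, and 0.5 after adjustment over the 5 genes. Thinned to 500 UMIs the Cpxm2 shares overlapped and differed by 5.03 points, and they also overlapped under a stricter well filter (8.25 points). A well with no UMI may hold less RNA of the gene or none, and these cannot be told apart.

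Cmtm5 was found in 42.0, 39.3 and 48.3% of thinned wells on irradiated plates, against 43.2, 48.6 and 56.9% on homeostasis plates, a difference of -6.36 points. Scrg1 was found in 42.0, 36.9 and 33.3% on irradiated plates, against 39.5, 25.7 and 37.5% on homeostasis plates, a difference of 3.18 points. For these 2 genes the thinned groups overlapped, with exact permutation p = 0.2 and 0.7, adjusted 0.5 and 0.7 (n = 3 each). At full depth Scrg1 was found in 63.8, 66.7 and 63.3% of wells on irradiated plates, against 61.7, 52.9 and 55.6% on homeostasis plates. Those shares did not overlap and differed by 7.88 points (exact permutation p = 0.1, adjusted 0.25). Tmprss5 was found in 47.8, 45.2 and 26.7% on irradiated plates, against 35.8, 42.9 and 56.9% on homeostasis plates, a difference of -5.29 points. Fam107a was found in 20.3, 19.0 and 25.0% on irradiated plates, against 23.5, 24.3 and 20.8% on homeostasis plates, a difference of -1.41 points. The shares of Tmprss5 and Fam107a overlapped as well, with exact permutation p = 0.7 and 0.6 and an adjusted p of 0.7 for both. The plate with the lowest Tmprss5 level, irradiated replicate 3, also had its lowest share.

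**Figure D5:**
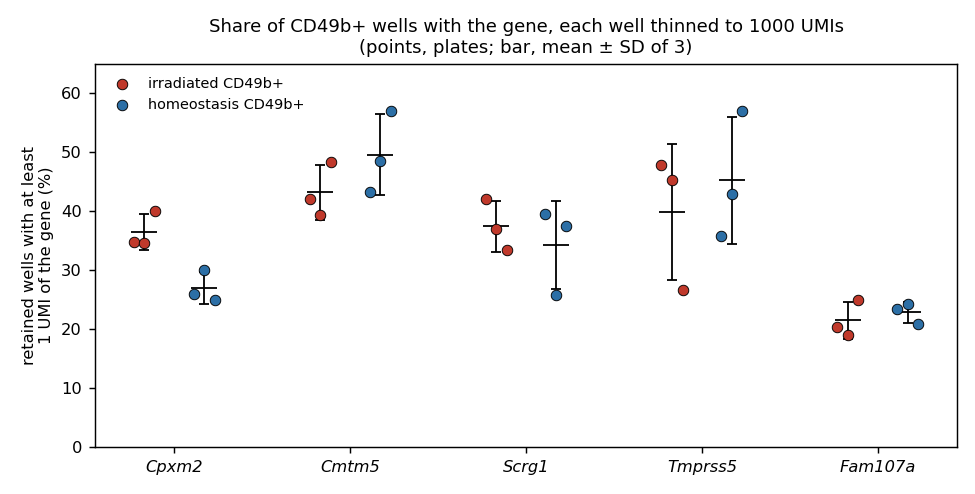
Share of retained CD49b+ wells with at least 1 UMI of each gene after thinning every well to 1000 UMIs (vertical axis, percent); points are plates, bars the mean ± SD of 3 plates. Cpxm2 lies at 34.5 to 40.0% on irradiated and 25.0 to 30.0% on homeostasis plates, and the other 4 genes overlap.

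CD49b+ wells differ in Gfap and in MHC class II transcripts, and the 5 genes were compared across these states within each plate, a comparison added after seeing the data. Among thinned wells, 187 had a Gfap UMI and 249 had none. Scrg1 was found in 31.0% of wells with Gfap and 39.8% of wells without, lower on 6 of 6 plates with a mean difference of -9.13 points (SD 4.96). An exact sign-flip permutation test over 6 plates gave p = 0.03125, the smallest it can give, and an adjusted p of 0.312 over the 10 comparisons. At full depth the Scrg1 difference was -4.88 points, and 1 of 6 plates went the other way. The other 4 genes differed between wells with and without Gfap by -8.77 to 0.986 points, and none of the 10 comparisons, MHC class II included, passed after adjustment. With 6 plates a comparison could pass only if most of the 10 reached the smallest p together, so the adjusted values decide nothing. The MHC class II comparison had few wells without a UMI, 92 of 436 and 1 on irradiated replicate 1, and no value is read from it.

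Most relatives of the 5 genes were read in both gates or were too sparse to test. Among those tested, Cmtm3 stood out with most of its UMIs in CD49b+ wells. The UMI counts here are out of 1121478 in retained CD49b+ wells and 3997972 in retained CD49b- wells. Equal counts thus stand for a higher level in the CD49b+ gate. Of 7 carboxypeptidase relatives of Cpxm2 only Cpe, which trims prohormones in neuroendocrine cells, was tested, and it had 2778 UMIs in CD49b+ wells and 2816 in CD49b- wells. Its CD49b+ minus CD49b- log2 fold change was 1.77 (SE 0.15, edgeR adjusted p = 4.57e-10), where 62.1% of all tested genes passed in this contrast, 29.6% higher and 32.4% lower. Aebp1, with a discoidin domain like that of Cpxm2, had 15 and 78 UMIs and was not tested. Of 9 CMTM-family relatives of Cmtm5, 3 were tested. Cmtm3 had 70 UMIs in CD49b+ and 8 in CD49b- wells (log2 fold change 4.90, SE 0.55, edgeR adjusted p = 6.2e-08). Cmtm6, a regulator of the checkpoint ligand PD-L1, had 27 and 22 (2.02, SE 0.52, edgeR adjusted p = 0.00169). Cklf, the chemokine-like founder of the family, had 30 and 61 UMIs and did not pass (0.39, edgeR adjusted p = 0.459). Of the membrane serine proteases related to Tmprss5 none had enough counts to be tested, and the matriptase gene St14 had 6 and 2 UMIs. Fam107b, the relative of Fam107a, had 10 UMIs in CD49b+ wells and 22 in CD49b- wells. Itgb1 and Bst1, reported as partners of the SCRG1 protein in human stem cells, had 144 and 488 UMIs and 0 and 4 UMIs, and Itgb1 did not differ past the threshold between the gates (0.03, edgeR adjusted p = 0.913). None of the 5 tested relatives and partners was called after irradiation, and Cklf had the largest estimate (-2.24, SE 0.65, edgeR adjusted p = 0.131).

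Lists of genes known from other glia, some of which use members of the group, gave the surroundings of the 5 genes. Of all tested genes, 29.6% were called higher and 32.4% lower in the CD49b+ gate, and the list counts between gates stand beside that background. UMI counts are again out of 1121478 in CD49b+ and 3997972 in CD49b- wells, so equal counts are not equal levels. Of 17 oligodendrocyte genes, 5 were tested, and 4 of these were higher and Cnp was lower in the CD49b+ gate. Of the oligodendrocyte genes not tested, Mog, Mobp, Cldn11, Olig1, Olig2 and Opalin had 0 UMIs in CD49b+ wells. Mal had 12 UMIs in CD49b+ and 0 in CD49b- wells, Cspg4 16 and 6, and Mag 4 and 7. Car2 had 2 and 6, and Ermn and Gpr17 had 1 and 0 each. Of 15 astrocyte genes, 8 were tested, of which 6 were higher and Clu was lower. Of those not tested, Aqp4, Aldh1l1 and Mlc1 had 0 UMIs in CD49b+ wells. Gja1 had 7 UMIs in CD49b+ and 7 in CD49b- wells, Slc1a2 3 and 22, Ntrk2 2 and 19, and Ntsr2 1 and 1. Over all CD49b+ wells 3 counts would be 2.68 CPM. Of 18 Schwann and satellite glia genes, 10 were tested, of which 7 were higher and Ngfr was lower. Of these, Ncam1 had the highest CD49b+ level, with 851 UMIs in CD49b+ and 1584 in CD49b- wells. Next were Sostdc1 with 399 and 5, Scn7a with 336 and 43, and Pmp22 with 240 and 741. Pmp22 did not differ past the threshold between the gates (edgeR adjusted p = 0.462). Apod, of the oligodendrocyte list, had 1222 and 51. Of 16 glucocorticoid response genes, a list chosen for Fam107a, 9 were tested, of which 7 were higher and Dusp1 was lower in the CD49b+ gate. Of those not tested, Sgk1 had 1 UMI in CD49b+ and 45 in CD49b- wells, Fkbp5 14 and 70, and Zbtb16 14 and 19. Errfi1 had 20 and 29, Ddit4 27 and 30, Lcn2 0 and 1, and Sult1a1 0 and 0. None of the tested genes of these lists was called after irradiation (background 0.713%). The median log2 fold change after irradiation was -0.17 for the oligodendrocyte, -0.10 for the Schwann and satellite glia, 0.09 for the astrocyte and 0.43 for the glucocorticoid response genes, beside 0.09 for all tested genes. The closest were Mt2, a metallothionein, at 0.90 on the log2 scale (edgeR adjusted p = 0.0665) and Apod, a lipid carrier, at 0.85 (edgeR adjusted p = 0.0676). Of the 9 tested glucocorticoid response genes 8 had a positive sign, beside 4902 of 8555 tested genes. Tsc22d3 of that list was at -0.26 (edgeR adjusted p = 0.860). Fam107a itself was at -0.20 and was not called.

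The genes with the plate pattern most like each member, by Pearson's r of log2(TMM CPM + 1), are given over the 12 plates, which share the gap between the gates. Cpxm2 was nearest to Art3 (r = 0.9946), Dbi and B2m. Cmtm5 was nearest to Nkain4 (0.9909), Fxyd1 and Sfrp1, and Scrg1 to Frzb (0.9929), Prdx6 and Lamp1. Tmprss5 was nearest to Megf6 (0.9949), Gjc3, a connexin of myelinating glia, and Vstm4. Fam107a was nearest to Sox10 (0.9973), the transcription factor of glial identity, then Sparc and Col11a1. Members correlated with each other at 0.9734 to 0.9925 on this scale. With the group means removed, over the 6 CD49b+ plates, they went from -0.7293 for Cmtm5 and Tmprss5 to 0.9391 for Cmtm5 and Fam107a. The nearest of all tested genes then reached 0.9936 to 0.9998 for every member, Sox10 for Cpxm2, Rnf157 for Cmtm5, Fryl for Scrg1, Ppcdc for Tmprss5 and Ankrd12 for Fam107a. Values this high came up for all 5 members among 8555 genes on 6 points, and the names describe these 6 libraries only.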

How the data were processed

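The deposited table holds UMI counts per gene and well, whole numbers without normalisation. Per the labels' protocols, cells were lysed and their RNA reverse-transcribed in the plate, and Nextera XT was used for the libraries. The submitters' processing notes list 2 builds, GRCm38 and GRCh38, the counter featureCounts 1.5.3 and the aligner STAR 2.5.3a, but not the role of each build, and how molecules were collapsed is not given in the sources used here. The table had 0 value columns that the labels do not place.

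Wells stayed in with 1000 or more UMIs, 500 or more genes and under 20% mitochondrial UMIs, and no doublet caller was run on these sorted wells. Counts were summed per plate and tested with edgeR 4.0.16 in R 4.3.3. The settings were TMM, filterByExpr, 4 group means over all 12 plates, quasi-likelihood F test and Benjamini-Hochberg adjustment. The procedure was also run on simulated data. With a 4-fold shift put into 100 genes, the irradiation comparison on CD49b+ plates picked up 55. With a 2-fold shift put into 100 genes it picked up 12, so most shifts of that size were missed there. The shifted genes were drawn at random from all tested genes, so these numbers do not say how many would be missed at the members' counts. The false calls numbered 3, with 7919 genes tested. Between the gates 88 and 58 were picked up in the same order, with 6 false calls. DESeq2 1.42.0 and limma 3.58.1 gave alternatives. Thinning drew 1000 UMIs per well without replacement (seed 1), and exact permutation tests used scipy 1.17.1. Intervals of shares and ratios are exact binomial at 95% and cover counting error only.

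The pool of mice pairs the CD49b+ and CD49b- plates, per the mouse identifiers in the labels, and does not pair irradiated with homeostasis plates. With limma voom the plates of a pool correlated at 0.0771. Plates of a group came from separate pools.

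The members and gene lists were chosen with earlier results of these data known. Named were all 5 members, the 3 tested genes with the closest plate pattern to each and all tested relatives. Of each list, the genes called after irradiation were named. Of the other listed genes only some were named, and these were not always the ones with the highest level. Some were added after their values were seen (Aebp1, St14, Fam107b, Bst1, Ngfr, Ncam1, Scn7a, Pmp22, Clu, Cnp, Dusp1, Tsc22d3, markers at 0 and the untested oligodendrocyte, astrocyte and glucocorticoid response genes).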

Additional observations from a re-analysis of the deposited data

Results flagged for a closer look

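The wells that the quality filter left out entered none of the comparisons above, only the alternative with no well filter. In 139 such CD49b+ wells with 31948 UMIs in all, the 5 genes had 96 UMIs in 59 wells (42.4%), a summed level of 3005 CPM. In the 47 CD49b- wells left out, with 8270 UMIs, they had 1 UMI in 1 well, or 121 CPM, where 3 counts would be 363 CPM. The CD49b+ value was singled out because it lies above both the CD49b- value and the 93.9 CPM that 3 counts would give there. By gene the left-out CD49b+ wells held 13 UMIs of Cpxm2, 27 of Cmtm5, 20 of Scrg1, 16 of Tmprss5 and 20 of Fam107a. Retained CD49b+ plates summed to 2299.6 to 2601 TMM-normalised CPM, a scale that is not the same. In plain CPM, retained CD49b+ wells held 391 of Cpxm2, 661 of Cmtm5, 408 of Scrg1, 558 of Tmprss5 and 274 of Fam107a.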

How the results depend on the processing

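The 5 genes' levels after irradiation were recomputed under 85 alternatives in all, of which 80 kept the sign and none gave an adjusted p under 0.631. The signs turned for Scrg1 with the plate set as a covariate (-0.043) and within the replicate 1 plates (-0.054). They turned for Tmprss5 in the same settings (0.34 and 0.36) and when 1 plate was left out, where its values ran from -0.43 to 0.0022, the highest without irradiated replicate 3. Of 50 alternatives for the shares, 45 kept the sign, and the lowest adjusted p was 0.25. Thinning to 500 UMIs turned Scrg1 (-1.50 points) and Fam107a (0.713 points), and leaving out 1 plate moved Scrg1 between -1.08 and 5.82 points and Tmprss5 between -9.99 and 1.33 points. At full depth the differences between wells with and without Gfap turned for Cmtm5 (0.861 points), Tmprss5 (0.167) and Fam107a (16.9), and those with and without MHC class II for Cpxm2 (-8.28) and Tmprss5 (12.7). The MHC class II values changed in depth and plates together, with 5 plates at full depth and 6 thinned, and on thinned irradiated replicate 1 only 1 well lacked an MHC class II UMI. Itgb1 between the gates was -0.10 with no filter on low counts. The causes were not tested.

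The count of all genes called after irradiation on CD49b+ plates moved with many settings. It was 61 of 8555 tested genes, 10 of 3614 with only the 6 CD49b+ plates, 146 of 26315 with no filter on low counts, 18 of 2417 with thinned wells, 22 without the 6 wells richer in neuron markers, 30 with the plate set as a covariate, 112 with DESeq2 and 17 with limma voom and the mouse pool as a replicate block, 2 choices changed together. That fit changed no member's call, and H2-Eb1 lost its call in it (adjusted p = 0.0595). Leaving out 1 plate gave 4 (without homeostasis replicate 3) to 156 (without irradiated replicate 3), with 40 and 28 without irradiated replicates 1 and 2 and 17 without homeostasis replicate 1 or 2. The count between gates was 5311 of 8555 tested genes, and 1561 of 2417 with thinned wells. With 307 to 741 UMIs per gene and 3 plates a group, the intervals given above are the precision of the fold changes, and a difference outside them may also miss the threshold.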
